A study of Mus musculus with 4 samples.

Results

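The collagen chain genes were taken as every row of the expression table whose symbol has the form Col, a number, the letter a and a number. The rule found 44 of the 21090 genes in the table, and it left out Col4a3bp, which encodes no collagen chain. The genes were measured by RNA-seq in 4 mouse mammary tumor cell lines, with 1 library per line. The question that the libraries address is what changes in a metastatic line when S100a4, which encodes a calcium-binding protein of the S100 family, is disrupted. The starting line was grown from the primary mammary tumor of a mouse with metastasis to the lung, which carried Pik3ca H1047R and Trp53 R270H, with Cre driven by the mammary tumor virus promoter MMTV, so all 4 lines share these alleles. The control group held the parental line, which received no virus, and a vector control line. The knockout group held a line whose guide targeted exon 3 of S100a4 and a line whose guide targeted exon 2. The guides were delivered by a lentivirus that also expressed Cas9, and infected cells were selected with puromycin, so the parental line differs from the other 3 lines in virus and selection as well. The sample titles call the cells 307 except for the exon 2 knockout, whose title says 308. Each line was profiled once, and p-values measure only the spread between these libraries, which may be technical.

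Collagens are secreted proteins in which 3 chains wind into a triple helix, and each chain is a repeat of a glycine followed by 2 further residues, often proline and hydroxyproline (Gly-X-Y). Fibrillar collagens form the cable-like fibrils of connective tissue, type IV forms the sheet of basement membranes under epithelium, and type VI forms beaded filaments around cells. In breast tissue fibrillar collagen is made mainly by fibroblasts, and tumor cells of spindle shape can make it too. A trimer needs its chains in fixed proportions, so the genes of 1 collagen type are usually read together.

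The fibrillar collagens stand apart from the other classes in the length of their repeat, while the other classes overlap. To show the repeat that defines the family, the first coding exon of exactly 54 bases with 6 glycine codons is printed for selected chains. These are of types I, III, V, IV and VI, and chains such as Col5a1 and Col6a2 are not printed. The sequences are from the longest coding transcript in GENCODE M21 (GRCm38), 5′ to 3′ on the strand of the gene, with the glycine codons in capitals. Such an exon encodes 6 repeats.
Col1a1, coding exon 9, chr11:94940118-94940171, plus strand: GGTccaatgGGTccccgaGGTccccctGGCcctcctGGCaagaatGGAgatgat
Col1a2, coding exon 8, chr6:4515481-4515534, plus strand: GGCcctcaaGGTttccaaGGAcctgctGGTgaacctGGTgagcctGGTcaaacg
Col3a1, coding exon 6, chr1:45325360-45325413, plus strand: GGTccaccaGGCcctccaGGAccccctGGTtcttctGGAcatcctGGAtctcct
Col5a2, coding exon 6, chr1:45434892-45434945, minus strand: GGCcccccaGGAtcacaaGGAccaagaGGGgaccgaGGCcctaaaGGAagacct
Col4a1, coding exon 7, chr8:11245211-11245264, minus strand: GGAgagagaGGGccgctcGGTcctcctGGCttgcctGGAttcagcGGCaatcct
Col4a2, coding exon 16, chr8:11413979-11414032, plus strand: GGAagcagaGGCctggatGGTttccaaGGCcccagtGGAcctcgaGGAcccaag
Col6a1, coding exon 9, chr10:76719623-76719676, minus strand: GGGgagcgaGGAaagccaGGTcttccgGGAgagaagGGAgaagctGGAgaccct

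In the fibrillar genes an exon of 54 bases is the common unit. Of the 649 coding exons of the 11 fibrillar genes, 305 (47.0%) had 54 bases, between 21 and 33 per gene. The share was 25.2% in the 9 FACIT genes, whose products sit on the surface of fibrils, and 3.97% in the 9 network genes. These counts are by length alone, and not every such exon held 6 glycine codons. Those that did were 19 of 21 in Col1a1, 21 of 24 in Col1a2, 16 of 24 in Col3a1 and 20 of 24 in Col5a2. The encoded helix also differed between the fibrillar chains and the rest. The longest run of Gly-X-Y repeats without a break was 338 repeats in Col1a1 and Col1a2 and 344 in Col3a1, and it lay between 216 and 344 repeats in all 11 fibrillar chains. In the network chains it lay between 39 and 66 repeats, and each type IV chain held 16 to 18 separate runs of at least 10 repeats, so that the type IV helix is interrupted many times. In the beaded filament chains of type VI it lay between 37 and 87 repeats. The plot of exon and repeat structure shows the fibrillar genes apart from the other classes in repeat length, while 1 FACIT gene, Col22a1, reaches their number of such exons with 28.

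**Figure D1:**
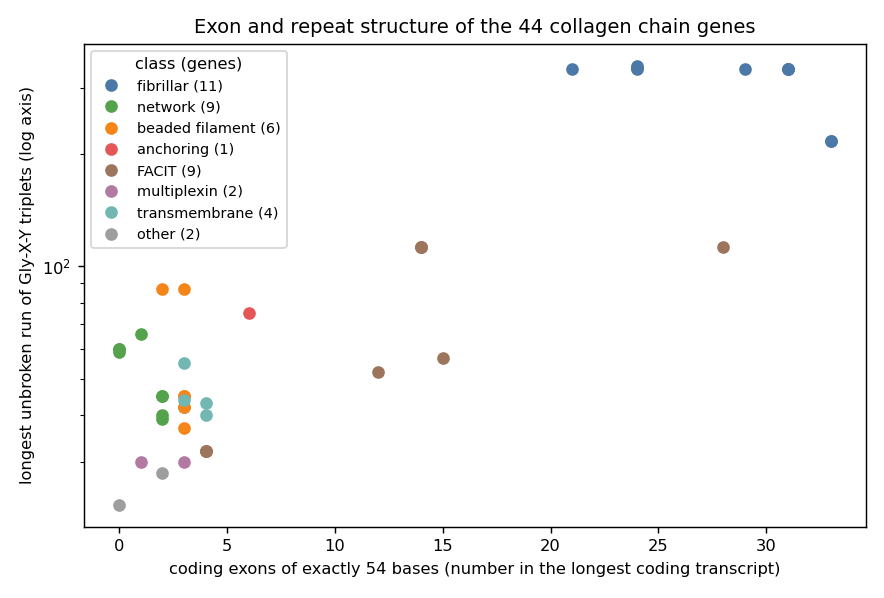
Number of coding exons of exactly 54 bases (x axis) against the longest unbroken run of Gly-X-Y repeats on a log axis (y axis), for the longest coding transcript of each of the 44 collagen chain genes, 1 point per gene, colored by class, with equal genes drawn over each other. The 11 fibrillar genes sit at 21 to 33 exons and 216 to 344 repeats, above the other classes in repeat length.

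The values were RPKM (reads divided by gene length in kilobases and by library depth), so levels are per length. The lengths behind the values were 1.0 to 1.10 times the annotated coding lengths of the tested collagens, with the highest ratio in Col6a2, which limits comparisons between chains to that precision. Whole reads were inferred from the table, and reads in genes numbered between 14608920 (exon 2 knockout) and 20403459 (parental line). S100a4 itself was at 3576 RPKM in parental cells and 4741 in vector control cells, against 1136 in the exon 3 line and 1105 in the exon 2 line. Its RNA level thus lay lower in both knockouts (log2 change -1.88, SE 0.31, limma adjusted p = 0.0731, not past 0.05). The labels name knockouts but give no RNA level, and the study assessed the loss by truncating mutations in the transcripts and by Western blot. The labeled cell type was a mammary tumor line. Of 12 epithelial markers, Krt8 and Krt18 were above a mean of 1 RPKM, while Epcam and Cdh1 stayed below 1 RPKM in every library. Of 12 mesenchymal and fibroblast markers, 10 were above that mean, with Vim between 1362 and 2418 RPKM. All 4 lines thus carried few of the defining markers of epithelium on this list.

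Collagen transcripts were most abundant in the parental line, and the vector control and the exon 2 knockout had the lowest totals. Reads in the 44 genes numbered 475628 in parental cells (2.33% of reads in genes), 97640 in vector control cells (0.574%), 151254 in the exon 3 line (0.969%) and 80966 in the exon 2 line (0.554%). Summed over the genes, collagen RPKM was 3526, 922, 1493 and 837 in the same order. The parental line was thus 3.83-fold above the vector control, and the exon 3 knockout was 1.62-fold above the vector control, while the exon 2 knockout was at 0.908 of it and 4.21-fold below the parental line. The knockouts therefore lay on both sides of the vector control, and both lay below the parental line.

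The fibrillar class took a larger part of the total in the parental line than elsewhere. Its 11 genes summed to 1782 RPKM in parental cells, 267 in vector control cells, 456 in the exon 3 line and 287 in the exon 2 line, which was 50.5%, 28.9%, 30.5% and 34.3% of collagen RPKM. Type VI summed to 866.5, 342, 495 and 222 RPKM, and the network class to 555, 251, 441 and 248 RPKM. The parental line exceeded the vector control 6.68-fold in the fibrillar class, 2.53-fold in type VI and 2.21-fold in the network class. Col1a2 was the most abundant collagen transcript in the parental line, the exon 3 knockout and the exon 2 knockout, and Col6a1 was the most abundant in the vector control. Cultured lines were measured in bulk, so fewer cells of a kind and less RNA per cell cannot be told apart.

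**Figure D2:**
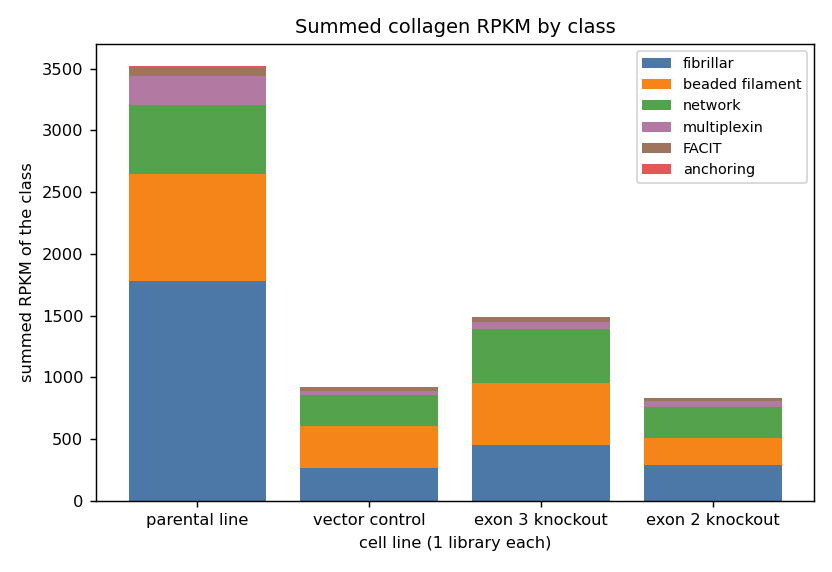
Summed RPKM of the collagen chain genes (y axis, from 0) in each cell line (x axis, 1 library each), stacked by class, with the transmembrane and other classes left out because they summed to under 1 RPKM. The parental bar reaches about 3526 RPKM and its fibrillar part alone (1782) is larger than each of the other bars (837 to 1493).

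Of the 44 genes, 19 had a mean of at least 1 RPKM over the 4 libraries and were tested, among 10871 genes in all. A further 19 had reads but a lower mean, and 6 were listed at 0 in every library. None of the 19 passed limma at an adjusted p under 0.05, where 2 of all genes tested did (0.0184%). At an unadjusted p under 0.05, 3 were lower in the knockouts (Col3a1, Col5a2 and Col12a1), beside 13.8% of all genes, and voom on the recovered reads also called 0 collagens. On average 18 of the 19 were lower in the knockouts, beside 55.0% of all genes, with a median log2 change of -0.73 against -0.08 over all genes tested. Over all 38 collagens with reads, without the filter on low values, the median was -0.19, against -0.04 over all 15405 genes with reads. In 4 of the 19 (Col3a1, Col4a5, Col5a2 and Col12a1) each knockout was below each control, where 31.2% of all genes were so. Only Col3a1 was at least 2-fold lower in all 4 pairs of a knockout and a control (1.73% of all genes), and 0 were at least 2-fold higher in all 4 (0.267%).

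The spread between the 2 controls was larger than the change for nearly all of these genes. The vector control was at least 2-fold below the parental line for 18 of the 19, all but Col4a2, whereas 5.19% of all genes were, and 0 were at least 2-fold above it (3.34%). The median difference of the 19 was -1.62 on the log2 scale, against 0.16 over all genes. The parental line was the highest of the 4 libraries for 18 of the 19, again all but Col4a2, and for 20.9% of all genes. Both knockouts lay between the controls for 8 of the 19 (Col1a1, Col1a2, Col4a6, Col5a1, Col6a3, Col7a1, Col16a1 and Col18a1), beside 12.9% of all genes. The knockouts differed from each other as well. The exon 2 knockout was at least 2-fold below the exon 3 knockout for 8 of the 19 (Col1a1, Col4a1, Col4a2, Col5a3, Col6a2, Col6a3, Col11a1 and Col12a1), where 2.43% of all genes were, and at least 2-fold above it for 0 (2.57%). With 1 library per line these differences within a group have no replicate check.

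**Figure D3:**
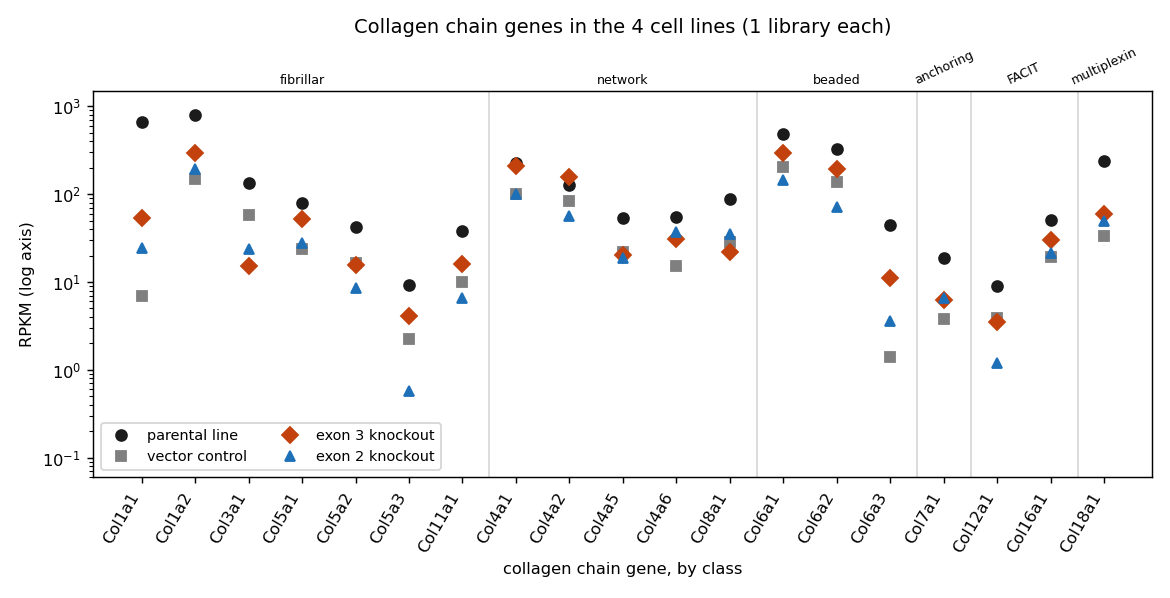
RPKM on a log axis (y axis) of the 19 collagen chain genes with a mean of at least 1 RPKM (x axis, grouped by class), 1 symbol per cell line and library. The parental line is the highest symbol for 18 genes, and the widest spread is that of Col1a1, from 6.93 to 670.3 RPKM.

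Among the fibrillar genes, type I showed the widest range. Col1a1, the chain present as 2 copies in the common type I trimer, was at 670.3 RPKM in parental cells (91333 reads), 6.93 in vector control cells (768 reads, 95% counting interval 6.45 to 7.44 RPKM), 54.3 in the exon 3 line and 24.2 in the exon 2 line. The parental line was 96.7-fold above the vector control, and the knockouts were 7.83-fold and 3.49-fold above the vector control. Its mean was 339 ± 469 RPKM in the controls and 39.2 ± 21.3 in the knockouts (SD, n = 2 each), and the log2 change of -0.97 had an SE of 1.40 (limma adjusted p = 0.725). Col1a2, which encodes the partner chain, was at 808, 149, 297 and 194.5 RPKM in the parental line, the vector control, the exon 3 and the exon 2 knockout. Both genes had the knockouts between the controls, and Col1a2 had a log2 change of -0.53 (SE 0.60, limma adjusted p = 0.647).

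Col3a1, the chain of the type III homotrimer that shares fibrils with type I, departed from this order. It was at 133 RPKM in parental cells, 57.9 in vector control cells, 15.2 in the exon 3 line and 23.9 in the exon 2 line, so the groups did not overlap and the exon 3 knockout was the lowest library. The log2 change was -2.14 (SE 0.41), and the limma adjusted p of 0.0957 did not pass the threshold. Without the vector control the log2 change was -2.74 and without the parental line -1.55, and corrected for coding GC content and coding length it was -1.998. The study had named Col3a1 from these same libraries as lower in the knockouts, so its place here is not independent evidence.

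Type V and type XI chains build the core on which type I fibrils form. Col5a1 was at 79.9, 23.8, 52.7 and 27.98 RPKM in the parental line, the vector control, the exon 3 and the exon 2 knockout. Its partner Col5a2 was at 42.5, 16.4, 15.4 and 8.545 RPKM in the same order, and each knockout lay below each control, although the exon 3 knockout was at 0.941 of the vector control. The log2 change was -0.18 (SE 0.50) for Col5a1 and -1.13 (SE 0.44, limma adjusted p = 0.209) for Col5a2. Col5a2 lies close to Col3a1 on chromosome 1, on the opposite strand. Col5a3, a rarer partner chain, was at 9.15, 2.23, 4.095 and 0.568 RPKM, and it was 7.22-fold lower in the exon 2 than in the exon 3 knockout, the largest fold between the knockouts among the 19 genes. Its lowest value rested on 67 reads (95% counting interval 0.44 to 0.721 RPKM). Col11a1, the main type XI chain, was at 38.3, 9.985, 15.99 and 6.50 RPKM, with the exon 3 knockout above and the exon 2 knockout below the vector control.

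The network genes had the smallest median log2 change of the classes with more than 1 tested gene, -0.14 over 5 genes. Col4a1 and Col4a2, which encode the chains of the ubiquitous type IV trimer, lie head to head on chromosome 8 with overlapping starts (Col4a1 at chr8:11198423-11312826 on the minus strand, Col4a2 at chr8:11312805-11449287 on the plus strand). Col4a1 was at 227 RPKM in parental cells, 100.5 in vector control cells, 212 in the exon 3 line and 99.6 in the exon 2 line. Col4a2 was at 127.5, 84.6, 156 and 56.7 RPKM in that order, and it was the single tested collagen whose highest library was not the parental line. In both genes the parental line and the exon 3 knockout formed the upper pair of libraries, so the groups overlapped fully. The log2 change was -0.06 (SE 0.44) for Col4a1 and -0.14 (SE 0.44) for Col4a2, and the mean RPKM of Col4a2 was 106 in both groups.

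Col4a5 and Col4a6 encode the type IV chains of some epithelial and smooth muscle basement membranes and lie head to head on chromosome X. Col4a5 was at 54.1, 22.1, 20.2 and 18.65 RPKM in the parental line, the vector control, the exon 3 and the exon 2 knockout, with 3 libraries close together and the parental line above them. Its neighbor Col4a6 was at 55.7, 15.03, 30.6 and 37.3 RPKM. Here the vector control was the lowest library, and Col4a6 was the single gene of the 19 with a positive log2 change, 0.21 (SE 0.49), although its mean RPKM was 35.4 in the controls and 34.0 in the knockouts. Col8a1, a short network chain made by vessel and eye tissue, was at 89.1, 28.3, 22.2 and 35.04 RPKM. The log2 change of -0.83 (SE 0.47) for Col8a1 and of -0.80 (SE 0.40) for Col4a5 had limma adjusted p-values of 0.354 and 0.295.

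Type VI is assembled from Col6a1, Col6a2 and a longer partner chain, in most tissues Col6a3. Col6a1 was at 491 RPKM in parental cells, 203 in vector control cells, 293 in the exon 3 line and 147 in the exon 2 line. Col6a2 was at 331, 137, 192 and 71.9 RPKM in the same order, and thus ranked the 4 libraries as Col6a1 did. The vector control lay between the knockouts for both genes. Col6a3 was at 44.4, 1.38, 11.03 and 3.62 RPKM, so that here the vector control was the lowest library, 32.1-fold below the parental line and 7.98-fold below the exon 3 knockout. The value in the vector control rested on 346 reads (95% counting interval 1.24 to 1.54 RPKM). The log2 changes were -0.61 (SE 0.44), -0.86 (SE 0.49) and -0.48 (SE 0.99) for Col6a1, Col6a2 and Col6a3, none of which passed limma.

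The multiplexin, anchoring and FACIT classes each held 1 or 2 tested genes, and the transmembrane and other classes held 0. Col18a1, a multiplexin of basement membranes whose end releases endostatin, was at 241 RPKM in parental cells, 33.4 in vector control cells, 59.0 in the exon 3 line and 49.6 in the exon 2 line. Col7a1, which forms the anchoring fibrils under skin epithelium, was at 18.6, 3.835, 6.31 and 6.53 RPKM. In both genes the knockouts lay close together and between the controls, and the SD of Col7a1 was 0.156 RPKM between the knockouts and 10.4 between the controls. The FACIT gene Col16a1 was at 51.3, 19.5, 30.2 and 21.3 RPKM. Col12a1, a FACIT with a very long coding sequence, was at 8.91, 3.92, 3.48 and 1.21 RPKM, with each knockout below each control (log2 change -1.15, SE 0.46, limma adjusted p = 0.216). The coding sequence of Col12a1 had the lowest GC content of the 19 (48.96%), and after correction of each library for coding GC content and length its log2 change was -0.40.

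The remaining 25 genes had a mean under 1 RPKM. Col4a3, Col6a6, Col9a1, Col13a1, Col19a1 and Col26a1 were listed at 0 in every library, which allows levels of up to 0.0141 to 0.101 RPKM (3 reads per library, counting error only). The cartilage collagen Col2a1 had 3, 4, 7 and 1 reads in the parental line, the vector control, the exon 3 and the exon 2 knockout, and Col10a1, of mineralizing cartilage, had 1 read in all. The epithelial transmembrane collagen Col17a1, a part of the hemidesmosome, had 6 reads in parental cells, 0 in vector control cells, 0 in the exon 3 line and 1 in the exon 2 line. Col4a4, Col6a5, Col9a2, Col14a1, Col15a1, Col22a1 and Col28a1 had between 1 and 16 reads over all libraries, and differences between libraries were not tested for them. Between 31 and 267 reads in all were found for Col6a4, Col8a2, Col9a3, Col11a2, Col20a1, Col23a1, Col24a1, Col25a1 and Col27a1. Of these, Col8a2 reached 1.24 RPKM in the parental line and 0.119 to 0.257 elsewhere, and Col24a1 had 50 reads in vector control cells and 17 in parental cells, against 1 in the exon 3 line and 4 in the exon 2 line.

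**Figure D4:**
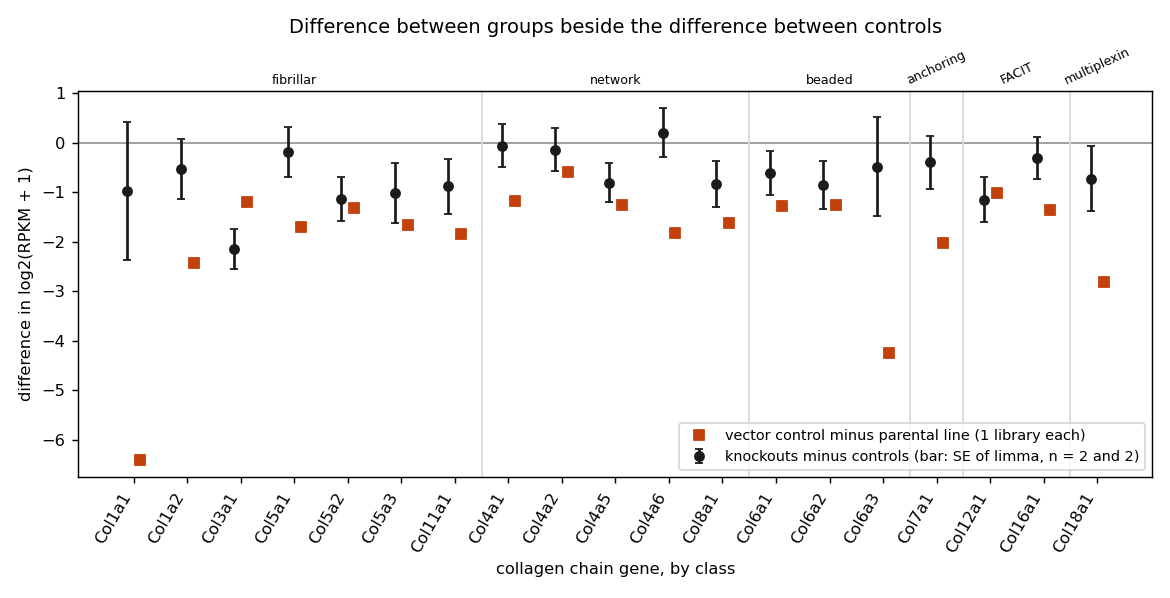
Differences in log2(RPKM + 1) (y axis) for the 19 tested collagen chain genes (x axis, by class). Circles are knockouts minus controls with the SE of limma (n = 2 and 2), and squares are the vector control minus the parental line (1 library each). The squares lie at -0.59 or lower for every gene, reaching -6.40 for Col1a1, while the circles lie between -2.14 and 0.21.

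The direction of most collagen differences depended on the control used. Against the parental line alone (without the vector control), all 19 genes were lower in the knockouts with a median log2 change of -1.64, and limma called 13 of them lower, beside 3.08% of all genes. Against the vector control alone (without the parental line), the median was 0.15 and 12 of the 19 were higher. Limma then called 1 gene lower (Col3a1, beside 5.06% of all genes) and 2 genes higher (Col1a1 with a log2 change of 2.23 and Col6a3 with 1.65, beside 2.19% of all genes). In these fits the lone control is assumed to vary as the knockouts do, and both fits use the same knockouts. Col3a1 was lower in the knockouts in both. Taken one by one, the exon 3 knockout was above the vector control for 14 of the 19 genes. The median difference was 0.63, against -0.14 over all genes tested. The exon 2 knockout was above the vector control for 9 and below it for 10, with a median of -0.01 against -0.13 over all genes tested. The coding sequences of the 19 were richer in GC (median 59.55%, all genes tested 53.1%) and longer (median length 5085 bases against 1410), and a correction of each library for both left the vector control below the parental line for all 19, with a median of -1.19.

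The ratio between chains of 1 collagen, taken within a library, shows which chains kept pace. Col1a1 to Col1a2 was 0.83 in parental cells, 0.0467 in vector control cells, 0.183 in the exon 3 line and 0.124 in the exon 2 line, a range of 17.8-fold with intervals that did not overlap (95% counting intervals 0.823 to 0.837, 0.0433 to 0.0502, 0.177 to 0.188 and 0.119 to 0.13). Between the controls Col1a1 thus differed far more than its partner chain. Col6a3 to Col6a1 spanned 13.3-fold, at 0.0904, 0.00681, 0.0377 and 0.0247 in the same order. By contrast Col6a2 to Col6a1 spanned 1.38-fold (0.674, 0.676, 0.655 and 0.49), and Col4a2 to Col4a1 spanned 1.501-fold (0.561, 0.842, 0.735 and 0.569). These were the pairs that held closest together across the libraries.

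Some of the 8 ratios separated the knockouts from the controls without overlap. With 2 libraries against 2, the exact permutation test gives such a split p = 0.333, and no share over other gene pairs was computed. Col3a1 to Col1a2 was 0.165 in parental and 0.389 in vector control cells, against 0.0512 in the exon 3 line and 0.123 in the exon 2 line. Col5a1 to Col5a2 was 1.88 and 1.45 in the controls and 3.42 and 3.27 in the exon 3 and exon 2 lines. Col4a6 to Col4a5 was 1.03 and 0.681 in parental and vector control cells, and 1.51 and 2.001 in the exon 3 and exon 2 lines. The log2 ratio differed between the groups by -1.67, 1.02 and 1.06 for these pairs. Col5a3 to Col5a1 was 0.114, 0.0936, 0.0777 and 0.0203 in the parental line, the vector control, the exon 3 and the exon 2 knockout. Col6a2 to Col6a1 also separated, at 0.674, 0.676, 0.655 and 0.49 in that order. The counting interval of its exon 3 ratio overlapped those of both controls. With 2 libraries against 2 the two-sided exact permutation test cannot go below p = 0.333, the value reached by Col3a1 to Col1a2, Col5a1 to Col5a2, Col5a3 to Col5a1, Col4a6 to Col4a5 and Col6a2 to Col6a1, so none of the 8 ratios could pass a threshold of 0.05 and p-values adjusted over the 8 could not either.

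**Figure D5:**
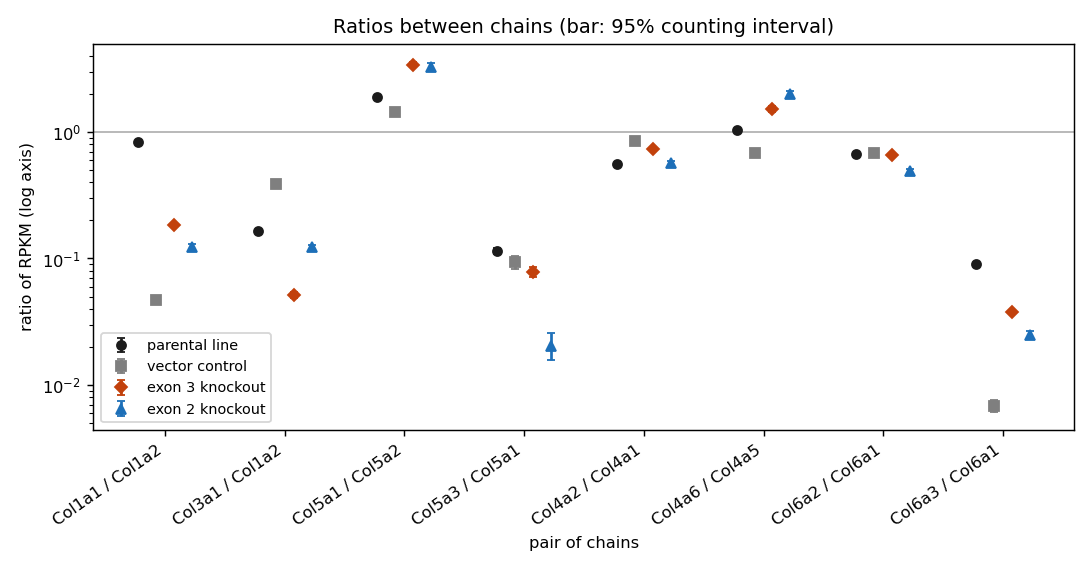
Ratio of RPKM between 8 pairs of collagen chains on a log axis (y axis) in each cell line (1 library each), with 95% counting intervals that cover counting error only. Col1a1 / Col1a2 runs from 0.0467 in the vector control to 0.83 in the parental line, while Col6a2 / Col6a1 stays between 0.49 and 0.676.

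A collagen chain is hydroxylated, folded, secreted, trimmed, cross-linked, bound by receptors and degraded by the products of other genes, which were counted from lists. Of 14 tested genes for prolyl and lysyl hydroxylation and glycosylation, 0 passed limma (2 at an unadjusted p under 0.05 in either direction, where 19.1% of all genes tested were), and 11 had a positive and 3 a negative log2 change, beside 55.0% of all genes with a negative one. Of 9 chaperone and secretion genes, 0 passed (2 unadjusted). Sec23a, a subunit of the coat of secretory vesicles, was at least 2-fold lower in all 4 pairs, as were 1.73% of all genes. It was at 52.9 and 50.9 RPKM in parental and vector control cells and 21.6 and 22.02 in the exon 3 and exon 2 lines. Of 5 genes for propeptide removal, 0 passed (0 unadjusted). With 0.0184% of all genes called, these counts of 0 are near the background and say little about the lists.

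Of 6 cross-linking genes, 0 passed limma (2 at an unadjusted p under 0.05 in either direction, beside 19.1% of all genes tested). Of the 6, 3 were at least 2-fold lower in the vector control than in the parental line, beside 5.19% of all genes. Among 7 collagen receptor genes, 0 passed (3 unadjusted). The discoidin receptor Ddr2, which binds fibrillar collagen, was at least 2-fold lower in all 4 pairs, a rule met by 1.73% of all genes. It was at 99.6 RPKM in parental cells, 70.5 in vector control cells, 32.8 in the exon 3 line and 30.8 in the exon 2 line (log2 change -1.37, SE 0.31, limma adjusted p = 0.102). Of 6 degradation genes, 0 passed (1 unadjusted). The gelatinase gene Mmp9 was at 3.42, 3.03, 0.971 and 0.122 RPKM in the parental line, the vector control, the exon 3 and the exon 2 knockout, at least 2-fold lower in all 4 pairs. Of 7 fibril regulators, 1 passed. Bgn, which encodes the small proteoglycan biglycan that binds collagen fibrils, fell from 264 and 375 RPKM in parental and vector control cells to 8.15 and 28.1 in the exon 3 and exon 2 lines (log2 change -4.27, SE 0.47, limma adjusted p = 0.0133). The study had named Bgn and Mmp9 from these libraries as well, and also Loxl2 of the cross-linking and Itgb1 of the receptor list. Loxl2 was at 5.35, 6.36, 3.21 and 0.662 RPKM in the parental line, the vector control, the exon 3 and the exon 2 knockout. Itgb1 was at 291, 261, 140 and 138 RPKM in the same order. Neither passed limma (adjusted p = 0.165 and 0.138). Of the 54 genes tested in these 7 lists, 18 were at least 2-fold lower in the vector control than in the parental line (5.19% of all genes) and 0 at least 2-fold higher (3.34%).

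The epithelial, mesenchymal, adipocyte, cartilage, endothelial and blood cell lists each had a lower sum in the vector control than in the parental line. The summed level of the mesenchymal and fibroblast list was 3501 RPKM in parental cells, 2466 in vector control cells, 1983 in the exon 3 line and 2345 in the exon 2 line, with 2 of 10 tested genes (Fn1 and Postn) at least 2-fold lower in the vector control than in the parental line, beside 5.19% of all genes. The median difference of the 10 between the controls was -0.22 on the log2 scale, and Zeb1 and Zeb2 were higher in the vector control by 0.17 and 0.27. Postn, which encodes a matrix protein of fibroblasts, was at 238, 37.9, 62.4 and 87.9 RPKM in the parental line, the vector control, the exon 3 and the exon 2 knockout, and the fibroblast surface marker Thy1 at 1.51, 0, 0 and 0.091 RPKM. The summed epithelial list was at 130, 34.96, 107 and 75.1 RPKM in the same order. Krt8 (69.0, 27.5, 78.9 and 54.8 RPKM) and Krt18 (60.2, 6.10, 27.3 and 19.05 RPKM) made up nearly all of it. Of the markers below 1 RPKM, Epcam, Cdh1, Cldn3, Cldn4 and Dsp were higher in the vector control than in the parental line. Krt5, Krt14, Krt19 and Cldn7 were lower there, and Esrp1 was listed at 0 in both. Of the adipocyte markers Adipoq and Plin1 were listed at 0 and Fabp4 was at 90.95, 2.68, 4.73 and 5.61 RPKM. Of 4 cartilage markers, Matn1 was listed at 0 and Acan was at 14.01, 1.54, 1.41 and 0.895 RPKM. Sox9, the most abundant of them, was at 46.99, 46.51, 40.3 and 25.6 RPKM and so nearly level between the controls. Lect1 was below 1 RPKM and higher in the vector control (0.194) than in the parental line (0.0315). The summed list ran from 26.5 to 61.0 RPKM. The 4 endothelial markers summed to between 0.186 and 0.443 RPKM. Of 6 blood cell markers, Ptprc was at or near 0, Cd3e and Emr1 were listed at 0, and Cd68 was at 4.92 and 3.36 RPKM in parental and vector control cells and 11.5 and 13.2 in the exon 3 and exon 2 lines, at least 2-fold higher in all 4 pairs (0.267% of all genes), with a log2 change of 1.39 (SE 0.34, limma adjusted p = 0.105). The summed blood cell list ran from 3.90 to 13.8 RPKM. The part of these genes in the collagen differences was not tested.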

How the data were processed

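Total RNA of 4 cell lines, 1 library each, was sequenced after a TruSeq stranded library preparation. The authors deposited RPKM values in 1 table, with 4 columns matched by label and 0 columns unmatched. CASAVA 1.8, GSNAP and GRCm38 appear in the submitters' processing notes. The counting rule and gene model are not given in the sources used here. Whole reads were inferred from RPKM by a search for a multiplier that gives whole numbers within 0.001 reads. The search succeeded for 100% of genes above 0, which genes with reads in few libraries meet easily. A factor common to the libraries was then set by coding length. The shortest implied length of a tested gene was 2.744 bases, so the scale does not hold for every gene. The implied lengths had a median ratio of 1.002 to annotated coding length in GENCODE M21, to which 20972 symbols (99.44%) were matched. Totals behind the RPKM ranged from 22472024 to 31235456.

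Groups came from the titles. The scale of every test was log2(RPKM + 1), on which changes of weakly expressed genes appear too small. Genes with a mean of at least 1 RPKM (10871) were fitted by limma 3.58.1 in R 4.3.3 with an intensity trend and no covariate, and p-values were adjusted by Benjamini-Hochberg over all of them (threshold 0.05). The fit was tested on simulated data. Other steps used Python 3.11.15, numpy 2.4.6, pandas 2.3.3, scipy 1.17.1 and matplotlib 3.10.9. Counting intervals (95%) and the floor of 3 reads cover counting error only.

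All collagens with a mean of at least 1 RPKM were named with their values, and the others with their reads or as 0. Pathway genes were named where called or at least 2-fold apart in all 4 pairs, and marker genes where they bear on the collagen values. The Acan, Fabp4, Postn, Thy1, Fn1, Cd68 and Vim values and Col8a2 and Col24a1 among the genes with few reads were singled out after their values were seen. The members and lists were chosen with earlier results of these data known. Alternatives were a pseudocount of 0.1, no filter, a mean of at least 5 RPKM, median ratio scaling, quantile normalization, no trend, a robust prior, voom on the recovered reads, correction for coding GC content and length, 1.5-fold and 3-fold in place of 2-fold, annotated coding length and leaving out each library.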

Additional observations from a re-analysis of the deposited data

Results flagged for a closer look

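Col4a2 drew notice because its knockouts moved in opposite directions. The exon 3 knockout (156 RPKM) lay above both controls (127.5 and 84.6 RPKM) and the exon 2 knockout (56.7 RPKM) below both, a difference of 1.44 in log2(RPKM + 1) between the knockouts. With 1 library per line the difference was not tested. The same was seen for 1 of the 19 tested collagen genes (5.26%) and for 857 of all 10871 genes tested (7.88%).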

How the results depend on the processing

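With all libraries kept, 165 of 169 values of single collagen genes under the alternatives kept their direction and their side of the threshold. No filter, a mean of at least 5 RPKM, no trend and a robust prior leave the log2 change itself as it was. Under these settings only the side of the threshold could move. The number of collagen genes called was 0 in the chosen analysis and 1 (Col3a1) both with a mean of at least 5 RPKM and with a robust prior. The share of all genes called under those settings was not counted, so this call cannot be set against the background. With GC and length correction the limma adjusted p of Col3a1 was 0.24. The number at least 2-fold apart in all 4 pairs was 1, and 0 at 3-fold. The log2 change of Col4a1, -0.06, was 0.037 with median ratio scaling and 0.068 with GC and length correction. The cause of these changes was not tested. With a library left out, 46 of 76 single-gene values kept direction and side. The number called ranged from 0 (without either knockout) to 13 (without the vector control), with 3 without the parental line. The median log2 change ranged from -1.64 (without the vector control) to 0.15 (without the parental line). The number 2-fold apart in all remaining pairs ranged from 1 to 11 (without the vector control). It was 3 without the exon 3 knockout and 2 without the parental line. Leaving out a library leaves fewer pairs, which makes this rule easier to meet for every gene. The share of all genes meeting it with a library left out was not counted, so these counts cannot be set against the background.

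Leaving out single libraries also turned the direction of single genes, and the lowest and highest log2 changes are given here. The ranges were Col1a1 -4.17 to 2.23, Col1a2 -1.74 to 0.69, Col4a1 -0.64 to 0.53, Col4a2 -0.86 to 0.58, Col4a6 -0.70 to 1.12, Col5a1 -1.04 to 0.67, Col6a1 -1.24 to 0.029, Col6a3 -2.61 to 1.65, Col7a1 -1.40 to 0.62, Col11a1 -1.80 to 0.040, Col16a1 -0.99 to 0.37 and Col18a1 -2.14 to 0.68. The RPKM ratios of Col4a2 to Col4a1 and of Col6a2 to Col6a1 moved by more than their counting intervals with annotated coding lengths, in the parental line to 0.542 and 0.739. No paired analysis was possible because the labels give no replicate numbers that could pair a knockout with a control. With 1 library per line, depth allows small counting errors for the 19 tested genes, but line, virus and selection cannot be told apart.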
